A study of Mus musculus with 11 samples.

Results

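The 10 genes described here encode matricellular proteins and were taken by symbol from a table of 47643 gene symbols: Tnc, Postn, Spp1, Sparc, Thbs1, Thbs2, Cthrc1, Ctgf, Cyr61 and Wisp1. All 10 were found in the table and all 10 passed the filter on low values, as did 11979 genes in all. Their levels were measured by RNA sequencing of fibroblasts that were FACS-sorted from mouse skin, in 11 libraries. The fibroblasts came from unwounded back skin (normal skin, NS) or from excisional wounds at day 5 after injury (5dw), of K14-Act mice (Act) or their wild-type littermates (WT). Act mice express INHBA, which encodes the activin A subunit, under the keratin 14 promoter, which is active in keratinocytes. Mice of both genotypes were a mix of 50% CD-1 and 50% C57Bl/6, aged 9 to 12 weeks, and each library held RNA pooled from 3 animals. The groups were WT NS (n = 3), Act NS (n = 3), WT 5dw (n = 3) and Act 5dw (n = 2), because the authors had excluded 1 Act 5dw library in their quality control. The spread between libraries is therefore that between pools and not between single animals.

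Matricellular proteins are secreted into the extracellular matrix but do little to build it. They bind matrix fibres, growth factors and cell surface receptors such as integrins, CD44, CD47 and syndecans, and so modulate adhesion, migration and the assembly of collagen. Many are scarce in resting adult tissue and abundant during development, in wounds and in fibrosis. The genes studied cover a tenascin (Tnc), the fasciclin domain protein periostin (Postn), osteopontin (Spp1), the collagen-binding SPARC, both type A thrombospondins (Thbs1 and Thbs2), the collagen triple helix repeat protein Cthrc1, and 3 members of the CCN family (Ctgf or Ccn2, Cyr61 or Ccn1, Wisp1 or Ccn4).

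Promoter windows show where the letters of known motifs lie before the start sites. RefSeq (GRCm38.p6) windows were at hand for 6 of the 10 genes (Tnc, Postn, Spp1, Sparc, Thbs2 and Cyr61). The 250 bases before the start site are printed 5′ to 3′ on the gene's own strand for 3 genes that were called higher in 5dw in both genotypes (Tnc, Spp1, Postn) and for Cyr61, the only one of the 10 that was not called in WT. Capitals mark matches, on either strand, to 5 motifs: TATAAA (the TATA box), CAGACA (a Smad motif), GGAATG (a TEAD motif), TGANTCA (an AP-1 motif) and AACCACA (a Runx motif).
Tnc (chr4:64047016-64047265, minus strand): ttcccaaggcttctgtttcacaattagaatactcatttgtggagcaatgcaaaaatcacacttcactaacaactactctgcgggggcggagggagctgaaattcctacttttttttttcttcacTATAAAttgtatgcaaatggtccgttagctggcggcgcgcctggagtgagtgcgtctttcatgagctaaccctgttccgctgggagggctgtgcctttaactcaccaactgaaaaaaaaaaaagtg
Spp1 (chr5:104434861-104435110, plus strand): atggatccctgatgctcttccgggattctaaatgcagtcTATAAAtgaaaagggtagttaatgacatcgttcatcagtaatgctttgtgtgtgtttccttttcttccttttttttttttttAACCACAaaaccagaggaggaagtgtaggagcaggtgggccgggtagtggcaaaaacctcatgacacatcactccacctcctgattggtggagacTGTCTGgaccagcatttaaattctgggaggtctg
Postn (chr3:54360857-54361106, plus strand): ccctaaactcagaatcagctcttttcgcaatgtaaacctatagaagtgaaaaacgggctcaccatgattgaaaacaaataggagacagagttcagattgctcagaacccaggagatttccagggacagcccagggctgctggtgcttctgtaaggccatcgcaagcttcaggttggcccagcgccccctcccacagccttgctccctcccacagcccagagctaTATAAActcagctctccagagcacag
Cyr61 (chr3:145649986-145650235, minus strand): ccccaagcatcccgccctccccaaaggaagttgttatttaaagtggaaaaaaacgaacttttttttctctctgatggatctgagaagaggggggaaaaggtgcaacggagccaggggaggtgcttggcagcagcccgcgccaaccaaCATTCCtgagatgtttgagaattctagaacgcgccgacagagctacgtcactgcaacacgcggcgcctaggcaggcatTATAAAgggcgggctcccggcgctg
The TATA box letters began 26 bases before the start site in Postn and 25 bases before it in Cyr61, but 126 bases before it in Tnc and 211 bases before it in Spp1. In Spp1, the Runx letters began 129 bases and the Smad letters, on the reverse strand, 34 bases before the start. In Cyr61, the TEAD letters were found on the reverse strand, beginning 103 bases before the start. Of the 2 windows not printed, Sparc held the Smad letters 36 bases before the start, and Thbs2 held them 67 and 44 bases before it and the TATA letters, on the reverse strand, 126 bases before it. Among 32851 mouse windows of the same length, 12.4% held the TATA letters, 17.1% the Smad letters, 12.6% the TEAD letters, 6.75% the AP-1 letters and 4.40% the Runx letters. The AP-1 letters were in none of the 6 windows, and a match of letters does not show that a factor binds.

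Values are RPKM (reads per gene, scaled by gene length and by mapped reads), which allows levels to be compared between genes. Between NS and 5dw libraries the values depend on the scaling, so results with another scaling are given beside them. The mapped totals recovered from them were 18649321 to 39702138 reads per library, and the reads behind a single value of these genes ran from 98 (Cthrc1 in an Act NS library) to 696335 (Sparc in a 5dw library). Differences were tested with limma on log2(RPKM + 0.5), with p-values adjusted by the Benjamini-Hochberg method over all 11979 genes and a gene called at an adjusted p under 0.05. The scale understates changes of genes near the added 0.5. Inhba was 3.40 to 6.93 RPKM in WT NS, 36.3 to 91.1 in Act NS, 15.8 to 24.0 in WT 5dw and 26.2 to 50.2 in Act 5dw, so the libraries of unwounded skin separated by genotype as their labels say. Inhba is the mouse gene and not the INHBA transgene, and the paper relates its regulation to activin autoregulation. Pdgfra, which encodes the sorted CD140a antigen, was 29.6 to 65.3 RPKM in the 11 libraries. Ptprc, which encodes CD45, had a mean of 0.0259 RPKM and the macrophage gene Adgre1 0.0694 RPKM. On the second principal component of all tested genes (7.06% of the variance) the first NS replicates of WT and Act, at 22.4 and 35.7, stood apart from the other NS libraries at -18.0 to -7.42, and results without them are given below for wounding, where a call changed. Summed keratinocyte marker RPKM (14 genes) was 1071 to 1993 in WT NS, 1114 to 4120 in Act NS, 114 to 967 in WT 5dw and 245 to 279 in Act 5dw, and 12 of the 14 markers were called lower in 5dw in either genotype (11 with the scaling described below). Its part in the results was not tested. The RNA input per library also differed between NS and 5dw in the study's protocol, which cannot be told apart from the tissue.

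Wounding was the comparison in which these genes moved. The 10 genes were chosen with earlier results of these data known, so their shares are no test of matricellular genes as a class. In WT mice, 9 of the 10 genes were called higher in 5dw than in NS and none lower, where 9.45% of all tested genes were called higher and 48.8% lower (58.3% in either direction). The median log2 fold change of the 10 genes was 1.35, against -0.40 for all tested genes. In Act mice, 6 of the 10 were called higher and none lower, where 9.04% of all tested genes were called higher and 36.5% lower (45.6% in either direction), with a median of 1.80 against -0.31. With each library scaled by its median ratio to the others, which brings the all-gene median to zero, 22.4% of tested genes were called higher and 22.2% lower in WT (44.6% in either direction) and 19.9% and 20.8% in Act (40.7% in either direction), and the genes called higher were 9 and 8 of the 10. Together the 10 genes made up 1.17 to 1.57% of the summed RPKM in NS libraries and 3.06 to 3.42% in 5dw libraries. Since RNA was sequenced in bulk, more cells that express a gene and more RNA per cell cannot be told apart.

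**Figure D1:**
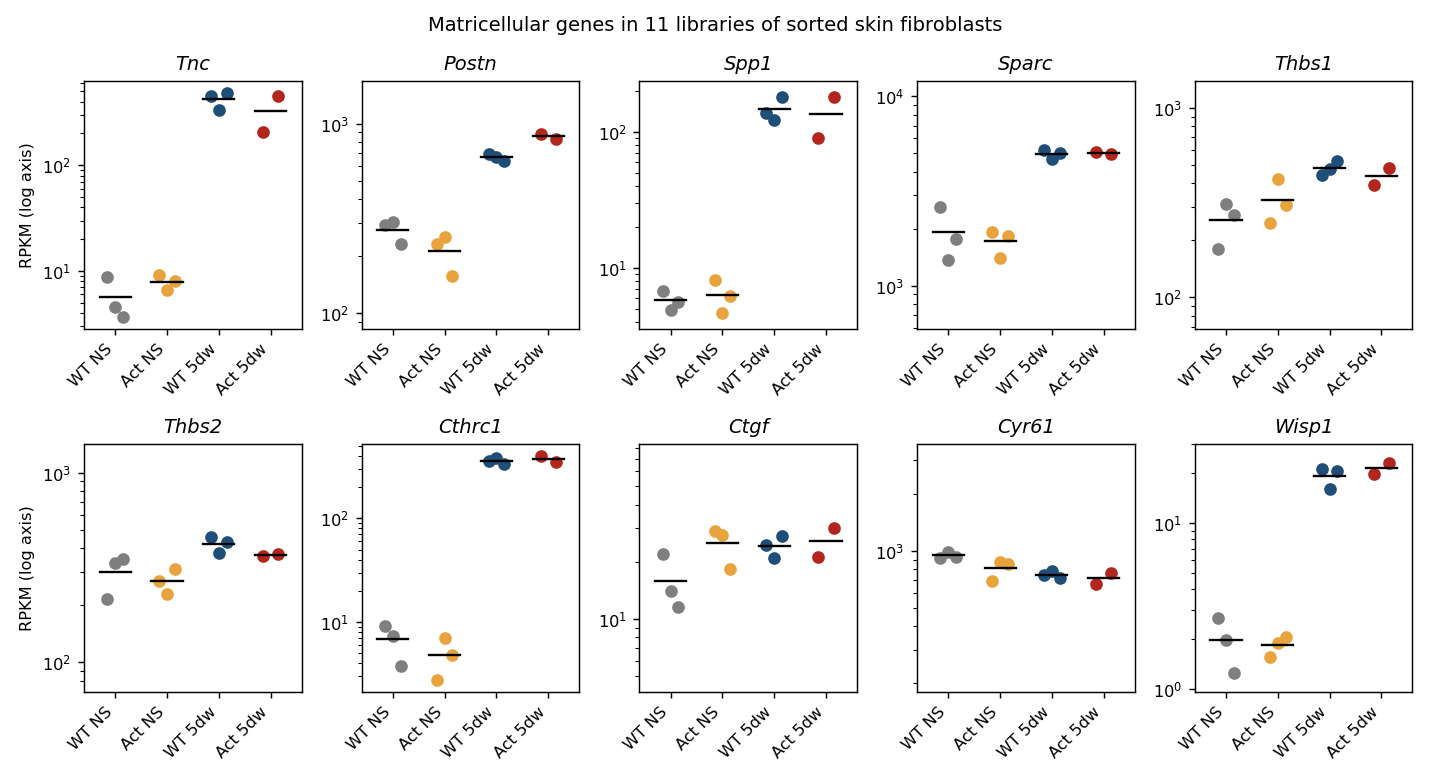
RPKM (log axis, with a range of its own in each panel) of the 10 genes, with 1 point per library (pool of 3 animals) and a line at the group mean, for WT NS, Act NS, WT 5dw and Act 5dw. Tnc, Spp1, Cthrc1 and Wisp1 lie far higher in the 5 wound libraries, Postn, Sparc and Thbs2 lie higher by a smaller factor, and Thbs1, Ctgf and Cyr61 overlap between tissues.

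Tnc encodes tenascin-C, a large glycoprotein of granulation tissue that modulates cell adhesion, and the gene lies on chr4:63959785-64047015. Its level was 8.80, 4.52 and 3.68 RPKM in WT NS, 9.15, 6.54 and 8.01 RPKM in Act NS, 457, 335 and 483 RPKM in WT 5dw, and 208 and 448 RPKM in Act 5dw. Every wound library exceeded every NS library, and the lowest of the wound libraries was an Act one. The mean was 75.0-fold higher in WT wounds, with a log2 fold change of 6.18 ± 0.33 (SE) and an adjusted p of 6.16e-07 (limma), which was at rank 4 from the top of all tested genes. In Act mice the mean was 41.6-fold higher, with a log2 fold change of 5.20 ± 0.37 (adjusted p = 4.89e-06, limma). Its transcript went from a mean of 5.67 ± 2.75 RPKM (SD, n = 3) in WT NS to 425 ± 78.5 RPKM (SD, n = 3) in WT 5dw.

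Cthrc1 encodes a secreted protein that is made in injured arteries and affects collagen deposition and lies on chr15:39076932-39087121. It was at 9.19, 7.39 and 3.77 RPKM in WT NS, 2.77, 6.95 and 4.82 RPKM in Act NS, 362, 387 and 333 RPKM in WT 5dw, and 404 and 347 RPKM in Act 5dw. All wound libraries lay far above all NS libraries. The log2 fold change was 5.71 ± 0.32 in WT (rank 5 from the top of all tested genes, adjusted p = 7.97e-07) and 6.21 ± 0.36 in Act (rank 2, adjusted p = 1.58e-06), both by limma. The NS values rest on few reads, down to 98 in a library.

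Spp1 encodes osteopontin, a secreted ligand of integrins and CD44, and lies on chr5:104435118-104441050. Its level was 6.76, 4.88 and 5.57 RPKM in WT NS, 8.14, 4.61 and 6.18 RPKM in Act NS, 138, 122 and 181 RPKM in WT 5dw, and 90.4 and 179 RPKM in Act 5dw. All wound libraries were above all NS libraries. The mean was 25.7-fold higher in WT wounds and 21.3-fold higher in Act wounds, with log2 fold changes of 4.56 ± 0.27 (adjusted p = 1.01e-06) and 4.26 ± 0.30 (adjusted p = 4.89e-06) by limma. The annotated gene Gm42793 shares 309 exon bases with Spp1 on the same strand and was listed at 0 in every library.

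Wisp1 encodes a Wnt-inducible CCN protein and lies on chr15:66891320-66923201. It was the lowest of the 10 genes in every group, at 2.68, 1.98 and 1.25 RPKM in WT NS, 1.55, 1.88 and 2.05 RPKM in Act NS, 21.4, 16.1 and 20.7 RPKM in WT 5dw, and 19.8 and 23.2 RPKM in Act 5dw. Wound and NS libraries did not overlap. The mean was 9.84-fold higher in WT wounds and 11.8-fold higher in Act wounds, with log2 fold changes of 3.04 ± 0.20 (adjusted p = 2.02e-06) and 3.24 ± 0.23 (adjusted p = 4.86e-06) by limma.

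Sparc encodes a calcium-binding glycoprotein that binds collagen, and lies on chr11:55394500-55423183. It had the highest level of the 10 genes in all groups, at 2611, 1366 and 1765 RPKM in WT NS, 1910, 1407 and 1824 RPKM in Act NS, 5209, 4682 and 5042 RPKM in WT 5dw, and 5081 and 4982 RPKM in Act 5dw. The lowest wound library was well above the highest NS library. Among all genes by mean level, it stood at rank 10 in NS and rank 3 in 5dw of both genotypes. The mean was 2.60-fold higher in WT wounds and 2.94-fold higher in Act wounds, with log2 fold changes of 1.43 ± 0.22 (adjusted p = 0.000390) and 1.57 ± 0.25 (adjusted p = 0.000656) by limma. Sparc made up 40.9 to 62.4% of the summed RPKM of the 10 genes in a library, and less than 50% in 3 of the 6 NS libraries.

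Postn encodes periostin, which binds collagen and supports its cross-linking, and lies on chr3:54361109-54391037. It was at 294, 302 and 233 RPKM in WT NS, 233, 251 and 157 RPKM in Act NS, 696, 664 and 635 RPKM in WT 5dw, and 887 and 832 RPKM in Act 5dw. The wound libraries lay above all NS libraries, and both Act wound libraries lay above all 3 WT ones. The mean was 2.41-fold higher in WT wounds and 4.02-fold higher in Act wounds, with log2 fold changes of 1.27 ± 0.18 (adjusted p = 0.000252) and 2.03 ± 0.21 (adjusted p = 4.29e-05) by limma.

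The thrombospondins had smaller log2 fold changes than the genes from Tnc to Postn above, a difference between genes that was not tested. Thbs1 encodes a trimeric glycoprotein that binds CD36 and CD47 and can activate latent TGF-β, and lies on chr2:118111876-118127133. It was at 180, 312 and 272 RPKM in WT NS, 246, 421 and 306 RPKM in Act NS, 443, 476 and 526 RPKM in WT 5dw, and 391 and 483 RPKM in Act 5dw. The WT groups did not overlap, but an Act NS library was above an Act 5dw library. The log2 fold change was 0.95 ± 0.24 in WT (adjusted p = 0.00572) and 0.46 ± 0.26 in Act (95% interval -0.12 to 1.04, adjusted p = 0.179), by limma. Leaving out 1 library each, the Act value ran from 0.28 (without Act NS replicate 1) to 0.66 (without Act NS replicate 2) and was not called. It was called with median-ratio scaling (0.81, adjusted p = 0.0234) and with the replicate number as a block (0.58, adjusted p = 0.0275), where the Act groups share only 2 numbers.

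Thbs2, a paralog that also inhibits angiogenesis and is known for its part in collagen fibril formation, lies on chr17:14665500-14694235. It was at 217, 333 and 353 RPKM in WT NS, 269, 230 and 310 RPKM in Act NS, 461, 375 and 429 RPKM in WT 5dw, and 363 and 373 RPKM in Act 5dw. All wound libraries were above all NS libraries, by a narrow gap. The log2 fold change was 0.51 ± 0.19 in WT (adjusted p = 0.0410) and 0.46 ± 0.22 in Act (95% interval -0.02 to 0.94, adjusted p = 0.107), by limma. Without WT NS replicate 1, whose level of 217 was the lowest of all, the WT value was 0.29 (adjusted p = 0.151), and the call was also lost without WT 5dw replicate 1 (0.45, adjusted p = 0.123), WT 5dw replicate 3 (0.50, adjusted p = 0.0989) or either Act 5dw replicate (adjusted p = 0.0550). The Act value was called without WT NS replicate 1 (adjusted p = 0.0427). With median-ratio scaling the values were 0.97 in WT (adjusted p = 0.00237) and 0.82 in Act (adjusted p = 0.0122).

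Of the CCN family, Ctgf and Cyr61 had smaller changes than Wisp1, a difference between genes that was not tested. Ctgf encodes connective tissue growth factor, a target of TGF-β and YAP, and lies on chr10:24595442-24598683. It was at 21.9, 14.0 and 11.5 RPKM in WT NS, 29.0, 27.8 and 18.3 RPKM in Act NS, 24.7, 21.0 and 27.5 RPKM in WT 5dw, and 21.2 and 30.1 RPKM in Act 5dw. The highest WT NS library overlapped the WT wound libraries, and the Act groups overlapped throughout. The log2 fold change was 0.65 ± 0.25 in WT (adjusted p = 0.0435) and 0.04 ± 0.28 in Act (95% interval -0.57 to 0.66, adjusted p = 0.917), by limma. The WT value fell to 0.46 (adjusted p = 0.169) without WT NS replicate 3, and the call was also lost without WT NS replicate 2 (adjusted p = 0.108), Act NS replicate 2 (adjusted p = 0.0515) or any 1 of the WT 5dw libraries (adjusted p = 0.0501 to 0.127). With median-ratio scaling the values were 1.09 in WT (adjusted p = 0.00990) and 0.39 in Act (adjusted p = 0.346). The antisense gene Gm15270 shares 665 exon bases with Ctgf and was at 0.0579 to 0.407 RPKM.

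Cyr61 encodes an immediate early protein that binds integrins and is a YAP target (the gene with TEAD letters in its printed window), and lies on chr3:145646976-145649981. It was at 918, 991 and 934 RPKM in WT NS, 695, 877 and 858 RPKM in Act NS, 748, 786 and 717 RPKM in WT 5dw, and 672 and 761 RPKM in Act 5dw. In WT all wound libraries were below all NS libraries, as was true of 55% of tested genes. The log2 fold change was -0.34 ± 0.14 in WT (95% interval -0.64 to -0.04, adjusted p = 0.0529) and -0.17 ± 0.15 in Act (adjusted p = 0.377), neither called by limma, and with median-ratio scaling it turned to 0.12 (adjusted p = 0.455) and 0.19 (adjusted p = 0.309). Relative to the all-gene median of -0.40 in WT, Cyr61 was thus not lower. It was called lower in WT when both NS libraries numbered 1 were left out (-0.36, adjusted p = 0.0384) and without Act NS replicate 1 alone (adjusted p = 0.0274). With the replicate number as a block, the WT value was -0.34 and was called (adjusted p = 0.0462, limma). The Act value ran from -0.28 to -0.081 in the fits that left out 1 library each.

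**Figure D2:**
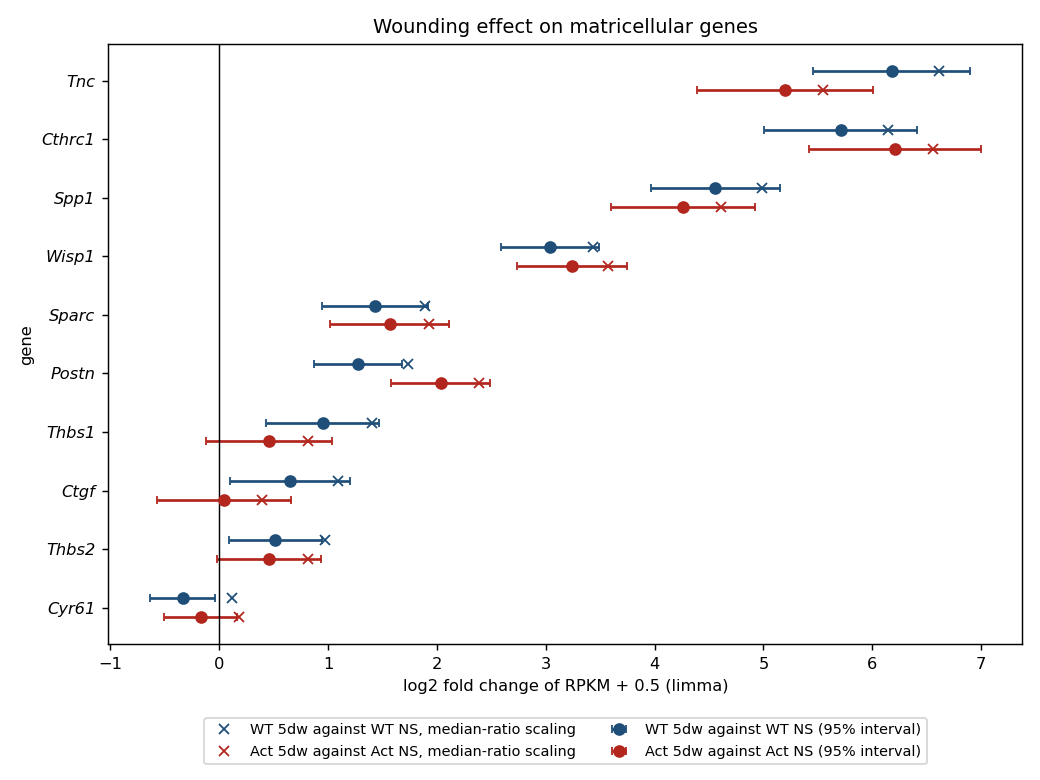
Log2 fold change of RPKM + 0.5 for 5dw against NS in WT (blue) and Act (red), as points with 95% intervals from limma and as crosses after median-ratio scaling, with genes in order of the WT value. Values run from 6.18 for Tnc to -0.34 for Cyr61 in WT, and the Cyr61 crosses lie on the other side of 0.

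Across both genotypes, 7 of the 10 genes (Tnc, Postn, Spp1, Sparc, Thbs2, Cthrc1 and Wisp1) had every 5dw library above every NS library, which held for 8.45% of tested genes. None had every wound library below, which held for 38.9%. In WT alone, 8 of the 10 genes were higher without overlap (11.4% of tested genes), and in Act 7 were (14.4% of tested genes). Cyr61 in WT was the only one lower without overlap, and in Act none was (49.8% of tested genes). Over both genotypes, Thbs1, Ctgf and Cyr61 overlapped between the tissues. Leaving out both NS libraries numbered 1, the counts of called genes were 9 in WT (Cyr61 called lower and Thbs2 no longer called) and 6 in Act. Of all 11979 tested genes, that fit called 1141 higher and 6024 lower in WT, and 1007 and 5281 in Act.

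The order of levels changed with wounding. In WT NS, Sparc (1914 RPKM on average) was followed by Cyr61 (948 RPKM) and then by Thbs2, Postn and Thbs1 at 301, 276 and 255 RPKM, whose ranges overlapped each other. Ctgf followed at 15.8 RPKM, and Cthrc1, Spp1 and Tnc at 6.78, 5.74 and 5.67 RPKM could not be told apart in level by range. In WT 5dw, Cyr61 (750 RPKM) and Postn (665 RPKM) stood below Sparc with ranges that did not overlap, and Thbs1 (481), Tnc (425), Thbs2 (422) and Cthrc1 (360 RPKM) formed a run of neighbours with overlapping ranges. Tnc and Cthrc1, which were low in NS, were then at the level of the thrombospondins. In Act 5dw, Postn (860 RPKM) came after Sparc and Cyr61 (717 RPKM) after Postn, without overlap.

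The genotype comparison asked whether activin overexpression in the epidermis changed these genes in the fibroblasts. In unwounded skin none of the 10 genes was called between Act and WT, where 0.0167% of all tested genes were called (2 genes). One of the 10, Ctgf, had an unadjusted p under 0.05, with a log2 fold change of 0.67 ± 0.25 (95% interval 0.12 to 1.22, adjusted p = 0.688, limma). Its levels of 29.0, 27.8 and 18.3 RPKM in Act NS overlapped those of 21.9, 14.0 and 11.5 RPKM in WT NS. Between same-numbered libraries, Ctgf, Tnc and Thbs1 were higher in Act NS each time, Postn and Cyr61 lower each time, and the others went both ways. With the replicate number as a block, none of the 10 was called (Ctgf at 0.67, adjusted p = 0.536, limma). Postn was at -0.39 ± 0.18 (95% interval -0.79 to 0.02, adjusted p = 0.701), and Tnc at 0.52 ± 0.33 (95% interval -0.20 to 1.25, adjusted p = 0.702). Leaving out 1 library each, Postn ran from -0.52 (without Act NS replicate 2) to -0.18 (without Act NS replicate 3), Tnc from 0.29 (without WT NS replicate 3) to 0.86 (without WT NS replicate 1), Cthrc1 from -0.79 (without WT NS replicate 3) to -0.13 (without Act NS replicate 1) and Thbs1 from 0.12 (without WT NS replicate 1) to 0.53 (without Act NS replicate 1). Cyr61 was the only one of the 10 whose Act NS libraries all lay below all WT NS libraries, as did 7.98% of tested genes, and in none did all lie above (0.993% of tested genes). Cyr61 was at -0.23 ± 0.14, from -0.29 to -0.13 in the fits that left out 1 library each, and at -0.092 with median-ratio scaling. The remaining 6 genes had log2 fold changes from -0.44 (Cthrc1) to 0.35 (Thbs1).

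In 5-day wounds, none of the 10 genes was called either, where 0.0334% of all tested genes were called (4 genes), and none had an unadjusted p under 0.05. Postn was at 0.37 ± 0.21 (95% interval -0.08 to 0.82, adjusted p = 1.00), with both Act libraries above all WT libraries, as was the case for 7.87% of tested genes. Thbs2 was at -0.19 ± 0.22, with both Act libraries below all WT libraries, as for 15.2% of tested genes. Tnc was at -0.46 ± 0.37 (95% interval -1.26 to 0.35) and Spp1 at -0.19 ± 0.30 (95% interval -0.85 to 0.47). Both values rest on Act 5dw replicate 1, which held 208 RPKM of Tnc and 90.4 RPKM of Spp1 against 448 and 179 RPKM in replicate 3, and without it they were 0.10 and 0.30. With 2 Act libraries, differences of up to 0.82 on the log2 scale for Postn and of as much as -1.26 for Tnc lie inside the intervals.

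**Figure D3:**
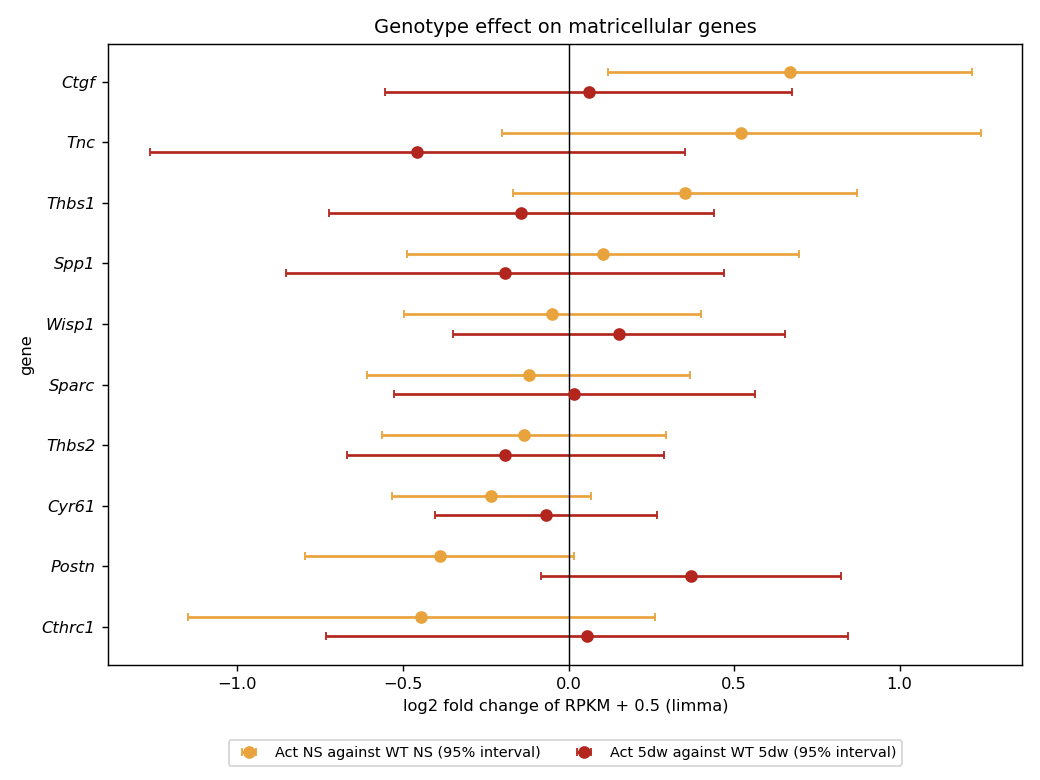
Log2 fold change of RPKM + 0.5 for Act against WT in NS (orange) and in 5dw (red), as points with 95% intervals from limma. In 5dw every interval includes 0, and in NS all do except that of Ctgf (0.12 to 1.22), which did not pass adjustment.

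Whether wounding acted differently in Act mice was tested by the interaction of wounding and genotype, in which no gene of the 11979 passed (0% called in either direction) and 400 had an unadjusted p under 0.05. In the genotype comparisons and here, limma-voom on the recovered reads called none of the 10 genes either, and none of the 7574 genes it covered. Postn was the only one of the 10 with an unadjusted p under 0.05, at 0.76 ± 0.28 (95% interval 0.15 to 1.37, adjusted p = 0.999, limma). Its log2 fold change with wounding was 1.27 in WT and 2.03 in Act, and the difference held from 0.55 to 0.89 in the fits that left out 1 library each. Tnc was at -0.98 ± 0.49 (95% interval -2.06 to 0.11, adjusted p = 0.999), and from -1.53 (without Act 5dw replicate 3) to -0.43 (without Act 5dw replicate 1) in the fits that left out 1 library each. Ctgf, which was called in WT and not in Act, had an interaction of -0.61 ± 0.37 (95% interval -1.43 to 0.22, adjusted p = 0.999), and Thbs1 one of -0.49 ± 0.35 (95% interval -1.27 to 0.29, adjusted p = 0.999), so the WT and Act responses of these genes were not shown to differ. Leaving out 1 library each, the Ctgf value ran from -0.86 (without WT NS replicate 1) to -0.36 (without Act 5dw replicate 1), and that of Thbs1 from -0.68 (without Act NS replicate 1) to -0.26 (without WT NS replicate 1).

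The spread between replicates differed from gene to gene. In WT NS, Tnc varied by 48.5% (coefficient of variation over 3 libraries), Cthrc1 by 40.6%, Wisp1 by 36.3% and Ctgf by 34.3%, Sparc by 33.2% and Cyr61 by 4.06%. In Act NS the 10 genes varied by 12.4% (Cyr61) to 43.2% (Cthrc1), with Tnc at 16.6% and Wisp1 at 13.9%. In WT 5dw the 10 genes varied by 4.60 to 20.9%. In Act 5dw Tnc and Spp1 varied by 51.7 and 46.4% between 2 libraries, and the other 8 genes by 1.40 to 24.5%.

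**Figure D4:**
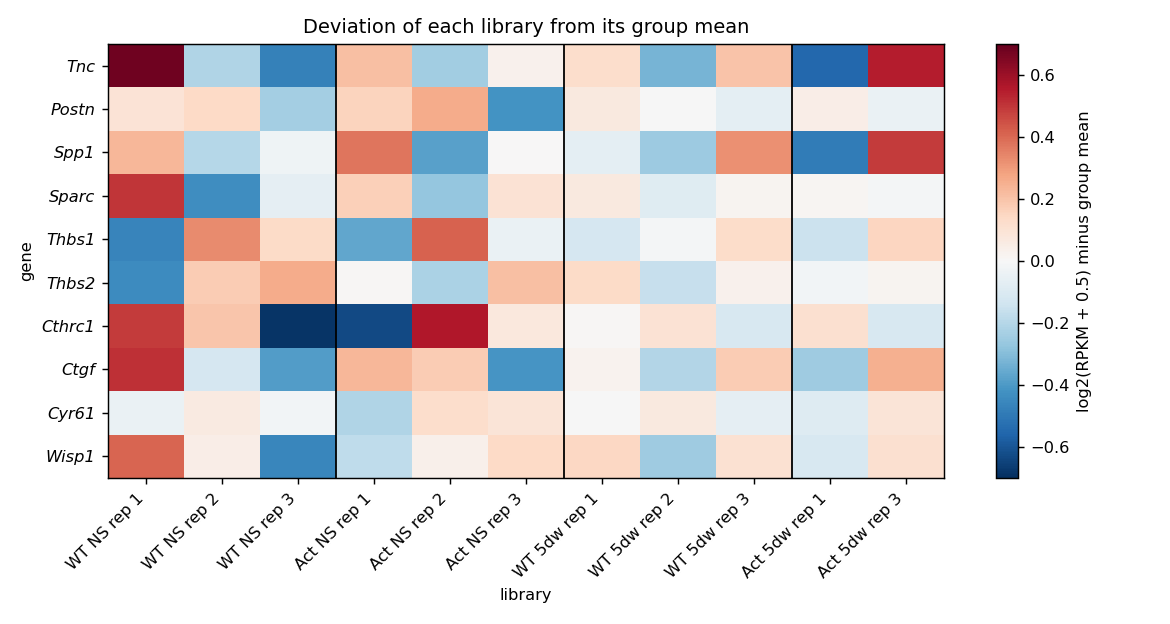
Deviation of log2(RPKM + 0.5) of each library from its group mean, with genes in rows, libraries in columns and black lines between groups (red above and blue below the mean). WT NS replicate 1 lies above its group mean for Tnc, Sparc, Cthrc1, Ctgf and Wisp1 and below it for Thbs1 and Thbs2, and the 2 Act 5dw libraries differ most in Tnc and Spp1.

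Relatives of the 10 genes within their families were followed too. A list of 20 paralogs (tenascins, the fasciclin protein Tgfbi, thrombospondins, the SPARC family, CCN proteins and osteopontin relatives) had 13 tested genes, of which 3 were called higher, 7 lower and 3 not called in WT wounds, and 2, 6 and 5 in Act wounds. Of all tested genes 9.45% were called higher and 48.8% lower in WT, and 9.04% and 36.5% in Act. The median log2 fold change of the list was -0.62 in WT and -0.28 in Act, against -0.40 and -0.31 for all tested genes, and with median-ratio scaling the counts were 4 higher and 6 lower in WT and 3 and 6 in Act. Within the SPARC family, Sparc (1.43) and Fstl1, a secreted follistatin-like glycoprotein (0.74 ± 0.14, adjusted p = 0.00139, limma), rose in WT wounds. Sparcl1 (-2.90), Smoc1 (-1.91), Smoc2 (-1.85) and Spock2 (-3.07), which share domains with SPARC, fell, and did so with median-ratio scaling too. Among tenascins, Tnxb, which encodes the tenascin-X of mature dermis, fell from 176 to 75.5 RPKM in WT (log2 fold change -1.22, adjusted p = 0.000569, limma) while Tnc rose. Tnn, chosen after its values were seen, rose from 9.32 to 77.6 RPKM (3.13, adjusted p = 0.000103, limma). Tgfbi, the fasciclin relative of periostin, was at -0.62 in WT (adjusted p = 0.0439) and -0.28 in Act (adjusted p = 0.403), by limma, and with median-ratio scaling at -0.16 (adjusted p = 0.640) in WT and 0.0726 (adjusted p = 0.865) in Act.

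**Figure D5:**
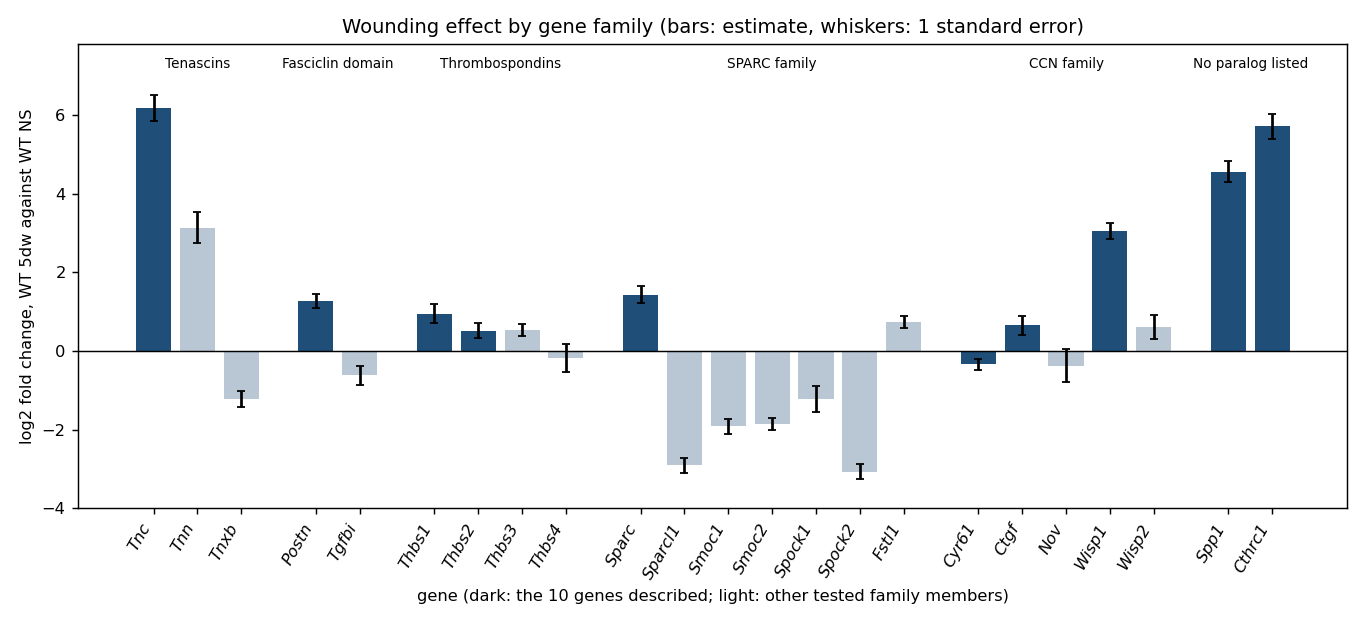
Log2 fold change of RPKM + 0.5 for WT 5dw against WT NS, with bars for the limma estimate and whiskers for 1 standard error, grouped by gene family, for the 10 genes (dark) and the 13 tested relatives (light). Within the tenascin and SPARC families bars point in opposite directions, from 6.18 for Tnc to -1.22 for Tnxb and from 1.43 for Sparc to -3.07 for Spock2.

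Receptors of these proteins were given by a list of 25 genes, of which 24 were in the table and 22 were tested. In WT wounds 5 were called higher and 11 lower, where 9.45% of all tested genes were higher and 48.8% lower, with a median log2 fold change of -0.29 against -0.40 for all genes. In Act 4 were called higher and 10 lower, where 9.04% and 36.5% of all tested genes were, with a median of -0.33 against -0.31. Cd44, a receptor of osteopontin, rose from 39.7 to 133 RPKM in WT (1.80 ± 0.34, adjusted p = 0.00123), and the integrin subunit Itgb1 from 117 to 166 RPKM (0.50 ± 0.13, adjusted p = 0.00789), both by limma. Sdc4, a syndecan that binds matrix proteins through its heparan sulfate, fell from 104 to 34.9 RPKM (-1.53 ± 0.23, adjusted p = 0.000284), and Itga8, the partner of Itgb1 in a tenascin-C and osteopontin receptor, fell from 3.13 to 0.154 RPKM (-2.46 ± 0.16, adjusted p = 1.48e-06). Lrp1, an endocytic receptor of thrombospondins, was at -0.20 (adjusted p = 0.327). With median-ratio scaling the counts were 5 higher and 6 lower in WT and 6 and 7 in Act.

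Ctgf and Cyr61 are targets of YAP and TEAD, and of 20 further listed targets 19 were tested. In WT wounds 3 were called higher and 10 lower, where 9.45% of all tested genes were higher and 48.8% lower, with a median log2 fold change of -0.47 against -0.40 for all genes. In Act 2 were called higher and 6 lower, where 9.04% and 36.5% of all tested genes were, with a median of -0.32 against -0.31. Igfbp3, which binds insulin-like growth factors, fell from 248 to 67.5 RPKM in WT (-1.86 ± 0.22, adjusted p = 8.57e-05), the receptor tyrosine kinase Axl from 175 to 85.9 RPKM (-1.04 ± 0.17, adjusted p = 0.000585) and Amotl2 from 21.1 to 8.41 RPKM (-1.22 ± 0.20, adjusted p = 0.000507), by limma. F3, which encodes tissue factor, rose from 41.7 to 89.7 RPKM (1.12 ± 0.27, adjusted p = 0.00461). With median-ratio scaling the split was 5 higher and 5 lower in WT and 4 and 3 in Act.

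Cells were released from tissue by enzyme digestion, and Cyr61 and Ctgf are immediate early genes, so a list of 23 genes that respond to dissociation is given beside them. In WT wounds 5 were called higher and 5 lower, where 9.45% of all tested genes were higher and 48.8% lower, with a median log2 fold change of -0.07 against -0.40 for all genes. In Act 5 were called higher and 2 lower, where 9.04% and 36.5% of all tested genes were, with a median of -0.0230 against -0.31. Fos was at means of 1318, 966, 1228 and 1222 RPKM in WT NS, Act NS, WT 5dw and Act 5dw. Ier3 rose from 203 to 730 RPKM in WT (1.85, adjusted p = 3.48e-05) and Hspa1a fell from 355 to 144 RPKM (-1.21, adjusted p = 0.00899), by limma. With median-ratio scaling 8 were called higher and none lower in WT, and 9 and none in Act. The part of this response in the levels of Cyr61 and Ctgf was not tested.

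Other cell types that can make these proteins were followed by their markers. Macrophages are a source of Spp1, and the sort had left out cells with CD45, CD11b or F4/80. The labels also name CD3 as a negative marker, which the study's methods and antibody list do not. Over 16 immune and macrophage markers the summed level was 19.4 to 33.2 RPKM in WT NS, 17.2 to 50.8 in Act NS, 88.9 to 122 in WT 5dw and 68.5 to 71.5 in Act 5dw. Cd3e, a T cell gene, was at means of 9.53, 15.4, 86.0 and 56.4 RPKM in these groups and made up most of the sum in both 5dw groups, while the median marker of the list was at 0.239, 0.271, 0.313 and 0.453 RPKM. Cd3g, another T cell gene, was at means of only 0.0458, 0.0523, 0.223 and 0.515 RPKM in the same groups. Ptprc was at means of 0.0291, 0.0248, 0.0339 and 0.0107 RPKM. The source of the Cd3e reads was not tested. Of the 5 markers tested, 2 were called higher (Cd3e and Csf1r) and 1 lower (Cd79a) in WT wounds, and 1 higher (Cd3e) and 2 lower (Cd79a and Cd68) in Act wounds. Of all tested genes 9.45% were called higher and 48.8% lower in WT, and 9.04% and 36.5% in Act. With median-ratio scaling 2 markers were higher and none lower in either genotype. The all-gene shares were then 22.4% higher and 22.2% lower in WT, and 19.9% and 20.8% in Act. From WT NS to WT 5dw, mean levels went from 2.25 to 3.96 RPKM for Csf1r, from 1.61 to 2.44 for Lyz2, from 8.40 to 6.08 for Cd68 and from 1.54 to 0.924 for Cd79a. The mean of Spp1 went from 5.74 to 147 RPKM over the same groups. Platelets carry Thbs1, and 7 platelet markers summed to 4.66 to 5.41 RPKM in WT NS, 4.14 to 5.30 in Act NS, 6.15 to 9.18 in WT 5dw and 4.82 to 5.53 in Act 5dw, with Treml1 at 0 in all libraries. From WT NS to WT 5dw, Ppbp went from 0.0226 to 3.11 RPKM and Pf4 from 0.126 to 1.01 RPKM, while Itga2b went from 2.74 to 1.56 and Gp1bb from 1.51 to 1.32 RPKM. Thbs1 was at 255 and 481 RPKM in these groups. The 10 endothelial markers summed to 33.1 to 40.5 RPKM in WT NS, 23.0 to 37.4 in Act NS, 22.1 to 25.9 in WT 5dw and 23.1 to 29.2 in Act 5dw, with Pecam1 higher (1.40, adjusted p = 0.000110) and Tek lower (-1.94, adjusted p = 0.000720) in WT wounds by limma. The 9 pericyte and smooth muscle markers summed to 16.4 to 25.8 RPKM in WT NS, 16.9 to 20.9 in Act NS, 12.8 to 16.2 in WT 5dw and 18.6 to 20.6 in Act 5dw. The part of these cells in the levels of the 10 genes was not tested. Of 12 fibroblast markers, 3 were called higher and 5 lower in WT wounds and 3 and 4 in Act wounds. The shares of all tested genes were 9.45% higher and 48.8% lower in WT, and 9.04% and 36.5% in Act. With median-ratio scaling 4 markers were higher and 2 lower in WT, where 22.4% and 22.2% of all tested genes were. In Act 4 and 3 were, against 19.9% and 20.8%. In WT, Col1a1, Col1a2 and Col3a1 rose and Dcn and Dpt fell, also with that scaling. Pdgfra, the sorted antigen, was at -0.63 in WT (adjusted p = 0.00250) and, with median-ratio scaling, at -0.18 (adjusted p = 0.269), by limma.

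Genes with a pattern most like that of each of the 10 were ranked by the root mean square difference of log2(RPKM + 0.5), centred on the gene's mean, over the 11 libraries, which differ mainly by tissue. Sparc was closest to Col1a1 (0.15), Col3a1 (0.16) and C1qtnf6 (0.17). Postn was closest to Csrp2 (0.18), Mgarp and Epb41l3, and Wisp1 to Sorcs2 (0.12), Capn6 and Hhipl1. Tnc was closest to Hp (0.42), Nos2 (0.49) and Cthrc1 (0.65), and Cthrc1 to H19 (0.61), Tnc and Cxcl5. Spp1 was closest to Lcn2 (0.30), Col12a1 and Glipr1. Thbs1 was closest to Steap4 (0.15), March3 and Arhgap11a, and Thbs2 to Rad18 (0.10), Ssr1 and Stt3a. Ctgf was closest to Ctsc (0.22), Mfge8 and Col8a2. For Cyr61, which moved little, the closest were Wdr45b (0.06), Rnf4 (0.06) and Drap1 (0.07). A small difference comes easily to a gene with little variation, so these values are not comparable between genes.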

How the data were processed

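The authors sorted live CD140a+ cells without CD45, CD11b and F4/80 (the labels add CD3), enriched poly-A RNA, sequenced 100-base reads, aligned them to GRCm38 in CLC Genomics Workbench and deposited gene values as RPKM, the unit used here, for 47643 symbols. The strand setting of the counting was not given in the sources. The submitters' processing notes name edgeR, whose test takes counts and was not run on RPKM. No columns of the authors' comparisons were used.

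Mapped totals (18649321 to 39702138) were recovered as the numbers that give whole reads from RPKM and GENCODE M21 exon lengths (tolerance 0.03). For Sparc, Thbs2, Cthrc1 and Wisp1 those lengths (3788, 7003, 1593 and 5565 bases) were replaced. The lengths that gave whole reads for them were 3367, 5922, 1480 and 5518 bases. The reads given for Cthrc1 and Sparc, which are the extremes, rest on these lengths. The 11979 genes that reached an RPKM of 1 in 2 or more libraries were fitted as log2(RPKM + 0.5) with limma 3.58.1 (trend) in R 4.3.3, with 1 mean per group over 11 libraries, with Benjamini-Hochberg adjustment per comparison. Fold changes are on this scale, and the precision is set by 2 or 3 pools per group. The fit was also run on simulated data, which is a check of the code and not of the results given here. Groups share replicate numbers. Deviations of same-numbered libraries correlated at 0.109 to 0.188 between WT NS and WT 5dw and at 0.334 to 0.554 between WT NS and Act NS (3 pairs each). The block treats the numbers as pairs, which was taken from the data and not from the labels. Between the Act groups (2 pairs) the values were 0.0187 and 0.143, and over all groups 12 of 15 same-numbered pairs and 5 of 30 other pairs were over 0.1. Deviations from a group mean cancel within the group, so these pairs are not independent. With 2 Act 5dw libraries they mirror each other (-0.124 and 0.124 for WT NS replicate 1). The correlations therefore cannot establish the pairing, and calls with the block rest on it. Besides pseudocount, filter, scaling, block and left-out libraries, limma-voom on recovered reads was added after seeing the data. The 10 genes and the gene lists were chosen with earlier results of these data known. From each list, up to 4 genes of highest mean and up to 4 of lowest adjusted p in WT were eligible to be named. Ptprc and Adgre1 (sorted antigens), Treml1 (listed at 0), Cd3g and Tnn were named outside this rule, after their values were seen. Pdgfra, also a sorted antigen, was named outside it too. Motifs were searched in RefSeq promoter windows of GRCm38.p6.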

Additional observations from a re-analysis of the deposited data

How the results depend on the processing

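Over 20 alternatives (19 for the interaction) the count of called genes among the 10 ranged within 7 to 10 in WT wounding and 6 to 7 in Act wounding when 1 library was left out, and 0 was called in both genotype comparisons and in the interaction under any of them. Tnc, Spp1, Cthrc1, Wisp1, Sparc, Postn and Thbs1 in WT, and the first 6 of these in Act, were called under all 20. In WT, Ctgf lost its call in 7 alternatives (highest adjusted p 0.169) and Thbs2 in 8 (highest adjusted p 0.151), and Cyr61 was called lower in 5. In Act, Thbs1 and Thbs2 were each called in 2, and with median-ratio scaling 8 genes were called. Limma-voom on the recovered reads, which covered 7574 genes and was adjusted over these, called 9 of the 10 genes in WT and 6 in Act. Of the 7574 genes it called 735 higher and 3757 lower in WT, and 684 and 2602 in Act.

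With median-ratio scaling the sign turned for Cyr61 in WT (0.12) and Act (0.19) wounding and for Sparc (0.0218), Thbs2 (0.00709) and Wisp1 (0.0541) in Act NS against WT NS. Without both NS libraries numbered 1 it turned in that comparison for Sparc (0.0450), Cthrc1 (0.12) and Wisp1 (0.24), and in the interaction for Sparc (-0.0282), Thbs2 (0.17), Cthrc1 (-0.0609) and Wisp1 (-0.0901). Leaving out 1 library each gave ranges that cross 0 for Ctgf in Act wounding (-0.21 to 0.29), for Sparc (-0.34 to 0.13), Wisp1 (-0.28 to 0.15) and Spp1 (-0.0836 to 0.30) in Act NS against WT NS, for Sparc (-0.0266 to 0.0504), Ctgf (-0.19 to 0.31), Tnc (-1.01 to 0.10), Spp1 (-0.68 to 0.30), Thbs1 (-0.29 to 0.00863), Cthrc1 (-0.0536 to 0.17) and Cyr61 (-0.16 to 0.0224) in Act 5dw against WT 5dw, and for Sparc (-0.11 to 0.35), Thbs2 (-0.19 to 0.16), Wisp1 (-0.00222 to 0.43) and Spp1 (-0.78 to 0.19) in the interaction. The cause was not tested. Where 1 Act 5dw library was left out, the other was assumed to vary like the other groups.

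With the replicate block, 10 genes were called in WT wounding (Cyr61 called lower), 7 in Act wounding (Thbs1 at 0.58, adjusted p = 0.0275) and 0 in the other comparisons, and Sparc turned to -0.12 in Act 5dw against WT 5dw. The block changed no other call of the 10 genes. Of all 11979 tested genes it called 1219 higher and 6098 lower in WT wounding, and 1168 and 4550 in Act wounding. In NS the fewest reads in a library were 98 for Cthrc1, 150 for Spp1, 204 for Wisp1, 655 for Tnc and 747 for Ctgf. Whether depth limited the results for these genes was not tested.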
